A study of Bos taurus with 29 samples.

Results

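Leucine, isoleucine and valine, the branched-chain amino acids, are broken down in mitochondria along a shared first stretch, and 6 genes of that stretch are described here in single cattle oocytes: BCAT2, BCKDHA, BCKDHB, DBT, BCKDK and PPM1K. They were chosen by name, with their levels already known, from a table of 13502 genes, and all 6 had a row. Levels are in CPM, the reads of a gene per 1000000 reads of its library. They were compared between 7 germinal vesicle (GV) oocytes, 8 oocytes after conventional in vitro maturation (IVM) and 7 after pre-maturation with C-type natriuretic peptide followed by IVM (CNP_IVM). GV oocytes are held before meiosis resumes, and the matured oocytes had reached metaphase II, as judged by the polar body.

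All oocytes were labelled wild type (WT) and came from follicles aspirated from cattle given follicle stimulating hormone (FSH). GV oocytes were stripped of cumulus cells when collected. IVM oocytes were cultured inside their cumulus for 22 h in serum-containing medium with epidermal growth factor (EGF) and FSH. CNP_IVM oocytes first spent 6 h in the same medium without EGF and with 200 nM CNP, a follicular peptide that keeps oocytes in meiotic arrest, and then 22 h in maturation. No group had the 6 h culture without CNP, so CNP and the longer culture cannot be told apart. No donor animal or culture is named for any oocyte, so each group counted as 1 sample. No test was made, and ± values and ranges show the spread between oocytes, not between animals. The labels of GV replicate 9 disagree: the title says GV and the treatment says matured in vitro. It was kept by its title. Values without it are given where the overlap of ranges or a 2-fold side of a breakdown gene depends on it. They are also given for part of the counts and other genes.

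In the shared stretch, an aminotransferase moves the amino group off the amino acid and leaves a branched-chain keto acid. A multienzyme complex, branched-chain keto acid dehydrogenase, then removes the carboxyl group irreversibly and passes the rest of the chain to coenzyme A. Its E1 component, made of an alpha and a beta subunit, carries out the decarboxylation with thiamine diphosphate. Its E2 component forms the core and transfers the acyl group on a lipoyl arm, and its E3 component, shared with other complexes, reoxidises that arm. A dedicated kinase switches the complex off by phosphorylating the E1 alpha subunit, and a mitochondrial phosphatase switches it on again. Oocytes resuming meiosis make little new transcript and rely on stored messenger RNA, which they polyadenylate, use or degrade. Libraries were primed on poly(A), so the amount of a transcript and the length of its tail cannot be told apart in any value below.

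The transcript of the core subunit and that of E1 alpha differed from GV in opposite directions. DBT, the E2 core, averaged 24.9 CPM in GV oocytes, 229 CPM after IVM and 203 CPM after CNP_IVM. BCKDHA, the E1 alpha subunit, averaged 27.5 CPM, 6.23 CPM and 0.987 CPM in the same order. BCKDHB, the E1 beta subunit, stayed under 2-fold in every comparison. The kinase gene BCKDK, the phosphatase gene PPM1K and the aminotransferase gene BCAT2 were all lower on average in both kinds of matured oocyte.

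A gene passed the filter on low values when 6 or more libraries held it at 1 CPM or above, which 11852 genes did, among them all 6 breakdown genes. Genes are counted as higher or lower from a 2-fold difference of group means. For IVM against GV, 48.9% of genes were past 2-fold, 15.9% higher and 33.0% lower; of the 6 breakdown genes 1 was higher, 4 were lower and 1 was under 2-fold. For CNP_IVM against GV it was 57.3%, with 15.3% higher and 42.0% lower, and the 6 genes again split into 1 higher, 4 lower and 1 under 2-fold. For CNP_IVM against IVM it was 16.7%, with 1.86% higher and 14.8% lower, and the 6 genes held 0 higher, 1 lower and 5 under 2-fold. The comparisons with GV share the GV oocytes. Because the genes were chosen with these levels in view, nothing is read from the counts. BCKDHA was at 1 CPM or more in 7 of 7 GV, 7 of 8 IVM and 5 of 7 CNP_IVM oocytes, and PPM1K in 6, 5 and 5.

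Log2 differences are those of the group means, each with 1 CPM added, which understates differences of low genes. Over all genes the log2 difference had a median of -0.28 for IVM against GV, -0.61 for CNP_IVM against GV and -0.28 for CNP_IVM against IVM, so the 6 genes are to be read against a lower middle. Trimmed-mean (TMM) factors moved these medians to -0.05, -0.16 and -0.06, and quantile normalization to 0.15, 0.14 and 0.01. Among genes at least 2-fold apart, the share on the higher side was 32.4%, 26.8% and 11.1% as reported, 43.8%, 43.2% and 31.5% with TMM factors, and 52.3%, 52.6% and 40.2% with quantile normalization. CPM is not scaled to transcript length, so levels of different genes are not compared.

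**Figure D1:**
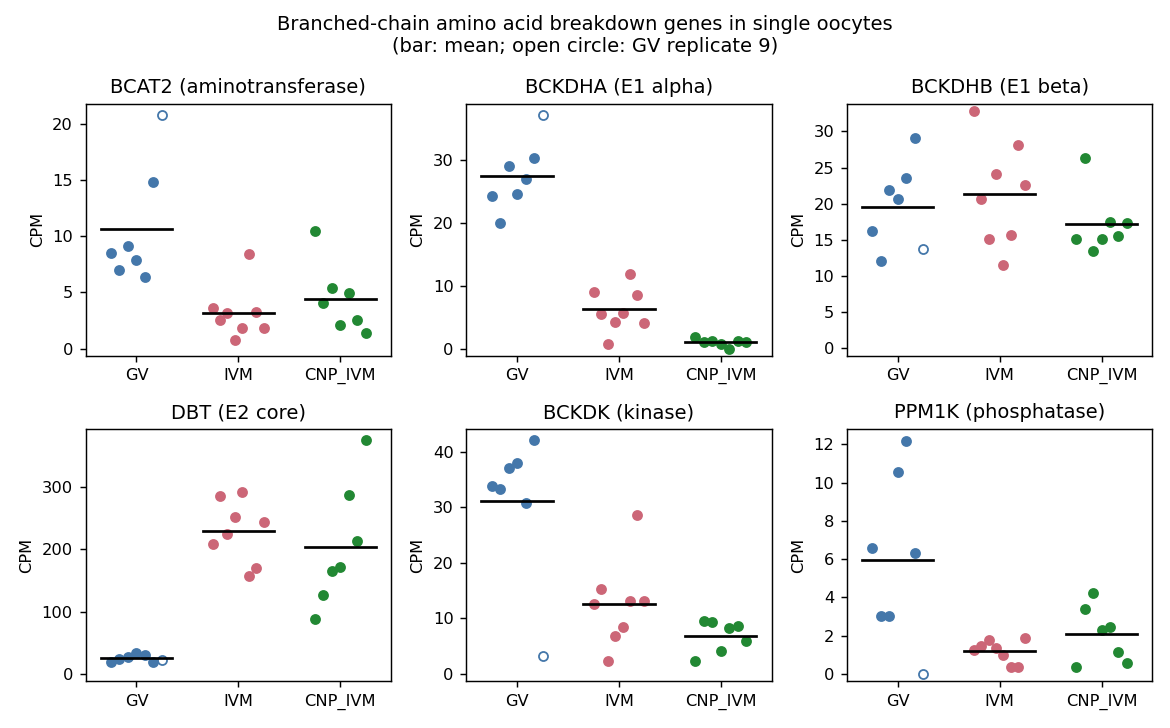
CPM (linear axes) of the 6 breakdown genes in each oocyte of the GV (n = 7), IVM (n = 8) and CNP_IVM (n = 7) groups. Points are oocytes, bars are group means and the open circle is GV replicate 9. DBT lies between 18.8 and 33.9 CPM in GV oocytes and at 88.2 CPM or more in every matured oocyte, while BCKDHA is at 19.99 CPM or more in every GV oocyte and at 11.9 CPM or less in every matured one.

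DBT encodes the acyltransferase that carries the lipoyl arm and holds the other subunits. It was at 18.8, 23.1 and 33.9 CPM (lowest, median and highest) in GV oocytes, at 157, 234 and 292 CPM after IVM and at 88.2, 171 and 375 CPM after CNP_IVM. Every matured oocyte lay above every GV oocyte, and the ranges of the matured groups overlapped. All IVM oocytes lay above all GV oocytes for 11.5% of all genes, and all CNP_IVM oocytes for 12.9%. The log2 difference from GV was 3.15 after IVM and 2.98 after CNP_IVM, where DBT ranked 9th and 5th from the highest of 11852 genes. Between the matured groups the log2 difference was -0.17, and it turned to 0.07 with TMM factors, so no direction is given. The SD between oocytes was 5.63 CPM in GV, 49.2 CPM in IVM and 98.5 CPM in CNP_IVM. CNP_IVM replicate 7, at 375 CPM, and replicate 1, at 88.2 CPM, mark its ends.

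BCKDHA encodes the subunit that the kinase and the phosphatase act on. GV oocytes had 19.99, 27.03 and 37.2 CPM (lowest, median and highest), IVM oocytes 0.789, 5.59 and 11.9 CPM, and CNP_IVM oocytes 0, 1.10 and 1.77 CPM. Every matured oocyte lay below every GV oocyte, while the matured groups overlapped through IVM replicate 5, which had the 0.789 CPM. All IVM oocytes lay below all GV oocytes for 19.9% of all genes, and all CNP_IVM oocytes for 28.0%. The log2 difference from GV was -1.98 after IVM and -3.84 after CNP_IVM, where BCKDHA ranked 1855th and 595th from the lowest of 11852 genes. The ratio of the plain means was larger, 4.42-fold lower after IVM and 27.9-fold lower after CNP_IVM. The 7 CNP_IVM libraries held 262 BCKDHA reads in all, 0.997 CPM with an exact 95% Poisson interval of 0.88 to 1.13 CPM, against 6204 reads in GV libraries, 27.97 CPM (27.3 to 28.7). Such intervals cover the counting of reads, not the capture of molecules or the spread between oocytes. CNP_IVM replicate 5 had 0 reads, which allows up to 0.0861 CPM.

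Between the matured groups BCKDHA was the breakdown gene furthest apart, with a log2 difference of -1.86 for CNP_IVM against IVM, the 225th lowest of 11852 genes. The size depended on the constant added: with 5 CPM added it was -0.91. Of 7 CNP_IVM oocytes, 2 lay below the lowest IVM oocyte. In no breakdown gene were the CNP_IVM and IVM ranges apart, against 1.38% of all genes with every CNP_IVM oocyte above and 2.60% with every one below.

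BCKDHB encodes the E1 beta subunit, which pairs with the BCKDHA product. It was at 12.02, 20.7 and 29.1 CPM in GV oocytes, at 11.5, 21.6 and 32.8 CPM after IVM and at 13.5, 15.6 and 26.4 CPM after CNP_IVM. The 3 ranges overlapped. The upper end of CNP_IVM was replicate 2 alone, and the next oocyte had 17.4 CPM. Log2 differences were 0.12 for IVM against GV, -0.18 for CNP_IVM against GV and -0.29 for CNP_IVM against IVM, all under 2-fold. TMM factors turned the CNP_IVM difference from GV to 0.36, and quantile normalization turned it to 0.63 and that between the matured groups to 0.048. The E1 pair was also compared within each oocyte: in GV, log2(CPM + 1) of BCKDHB minus that of BCKDHA averaged -0.50 ± 0.44 (SD, n = 7), in IVM 1.75 ± 0.86 (SD, n = 8) and in CNP_IVM 3.23 ± 0.57 (SD, n = 7). Such a difference within an oocyte does not depend on scaling by a library factor, apart from the added constant, but it carries no ratio of molecules, since the genes differ in length, and only the shift between groups can be read.

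The same measure set DBT against BCKDHA. It ran from -0.72 to 0.44 in GV oocytes, from 3.61 to 6.97 after IVM and from 5.01 to 8.17 after CNP_IVM. The group means were -0.15 ± 0.44, 5.15 ± 1.06 and 6.60 ± 1.03 (SD). All matured oocytes thus lay above all GV oocytes, and the matured groups overlapped.

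**Figure D2:**
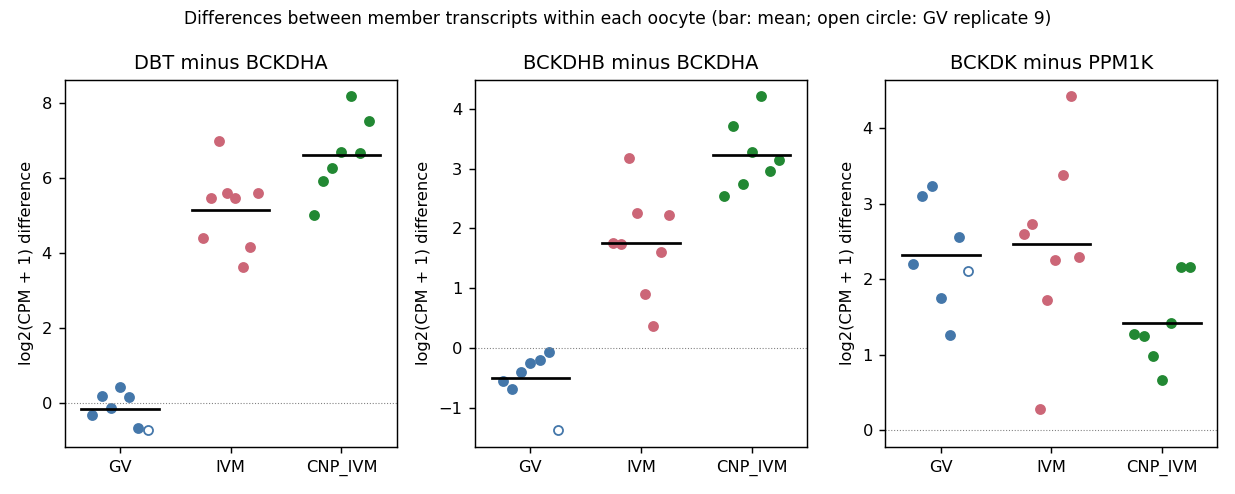
Difference of log2(CPM + 1) between pairs of breakdown genes within each oocyte, by group (7 GV, 8 IVM, 7 CNP_IVM). Points are oocytes, bars are means and the open circle is GV replicate 9. DBT minus BCKDHA is at most 0.44 in GV oocytes and at least 3.61 in matured oocytes, whereas BCKDK minus PPM1K overlaps between all groups.

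BCKDK encodes the kinase that inactivates the complex. GV replicate 9 had 3.30 CPM, and the other 6 GV oocytes had 30.7 to 42.1 CPM. IVM oocytes had 2.37, 12.8 and 28.6 CPM (lowest, median and highest), and CNP_IVM oocytes 2.30, 8.18 and 9.45 CPM. With all GV oocytes the ranges overlapped, and without GV replicate 9 every matured oocyte lay below every GV oocyte. The log2 difference from GV was -1.25 after IVM and -2.03 after CNP_IVM, and -1.44 and -2.22 without GV replicate 9. With quantile normalization the IVM difference was -0.98, just under 2-fold. Between the matured groups it was -0.78.

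PPM1K encodes the phosphatase that reactivates the complex, and it had the fewest reads of the 6 over all libraries. GV replicate 9 had 0 reads, which allows up to 0.0817 CPM, and the other 6 GV oocytes had 3.01 to 12.2 CPM. IVM oocytes had 0.356, 1.29 and 1.88 CPM, and CNP_IVM oocytes 0.370, 2.29 and 4.22 CPM. Without GV replicate 9 all IVM oocytes lay below all GV oocytes, and CNP_IVM oocytes still overlapped them. The log2 difference from GV was -1.67 after IVM and -1.18 after CNP_IVM, and -1.87 and -1.38 without GV replicate 9. The IVM difference was -0.88 with quantile normalization. The CNP_IVM difference was -0.78 with TMM factors, -0.14 with quantile normalization and -0.95 without GV replicate 6, the highest GV oocyte. Matured oocytes held between 14 and 165 PPM1K reads each.

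Without GV replicate 9, then, 3 of the 6 genes (BCKDHA, BCKDK, PPM1K) had every IVM oocyte below every GV oocyte, against 25.6% of the 11783 genes past the filter in those libraries. For CNP_IVM it was 2 (BCKDHA, BCKDK), against 36.1%. For DBT every matured oocyte still lay above every GV oocyte, against 14.1% of genes for IVM and 15.2% for CNP_IVM. Kinase and phosphatase were compared in the same way: BCKDK minus PPM1K on the log2(CPM + 1) scale averaged 2.32 ± 0.71 in GV, 2.46 ± 1.20 in IVM and 1.41 ± 0.57 in CNP_IVM (SD). The mean was lowest in CNP_IVM, and the ranges overlapped.

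BCAT2 encodes the mitochondrial aminotransferase of the first, reversible step. It was at 6.41, 8.48 and 20.8 CPM in GV oocytes, at 0.783, 2.86 and 8.46 CPM after IVM and at 1.40, 4.03 and 10.4 CPM after CNP_IVM. GV replicate 9 was the highest GV oocyte, IVM replicate 8 the highest IVM oocyte and CNP_IVM replicate 1 the highest CNP_IVM oocyte. Of the matured oocytes, 7 of 8 IVM and 6 of 7 CNP_IVM lay below the lowest GV oocyte. The log2 difference from GV was -1.47 after IVM and -1.11 after CNP_IVM. The IVM difference was -0.84 with quantile normalization and -1.25 without GV replicate 9. The CNP_IVM difference was -0.59 with TMM factors, -0.052 with quantile normalization, -0.91 for group medians, -0.89 without GV replicate 9 and -0.99 without CNP_IVM replicate 7, all under 2-fold. BCAT1, the cytosolic aminotransferase of the same reaction, was at 34.8 CPM in GV, 34.5 CPM after IVM and 34.1 CPM after CNP_IVM, log2 differences of -0.01 and -0.03 from GV. The GV mean rests in part on GV replicate 9, at 67.6 CPM: without it the mean was 29.4 CPM and the differences were 0.22 and 0.21.

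Oocytes of a group did not line up in the same order for all 6 genes. IVM replicates 1, 8 and 9 had the highest BCKDHA levels of their group (9.04, 11.9 and 8.58 CPM) and the lowest DBT levels (209, 157 and 170.3 CPM). They also had the most genes at 1 CPM or more, 10783, 10752 and 10653, where the other IVM oocytes had 9431 to 10434. Their summed cumulus and granulosa markers were the highest of the group, 542.5, 651 and 621 CPM, sums in which STAR was the most abundant marker. Their blood and immune marker sums were also the highest, 46.8, 45.4 and 30.8 CPM. Their oocyte marker sums were the lowest, 23241, 22680 and 23187 CPM. Their TMM factors were the highest, 1.18, 1.19 and 1.24, where the other IVM oocytes had 0.828 to 0.995. The part of these measures in the BCKDHA and DBT levels was not tested. CNP_IVM replicate 1 had the lowest DBT, BCKDK and PPM1K and the highest BCAT2 and BCKDHA of its group, and CNP_IVM replicate 7 had the highest DBT and the lowest BCAT2. Of the 15 pairs of breakdown genes, DBT with BCAT2, singled out after the values were seen, had a Pearson r of -0.52, -0.75 and -0.72 in GV, IVM and CNP_IVM, over 7, 8 and 7 oocytes. These are descriptions over oocytes that share library, depth and scaling, and BCAT2 rests on 29 to 764 reads per oocyte.

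The genes most like each breakdown gene were found by Pearson r of log2(CPM + 1) over the 22 libraries, among genes averaging at least 10 CPM. The r with group means removed follows it in parentheses. The first r includes the differences between groups, so a like order of group means follows largely from the choice. For DBT they were SUPT20H (0.98, then 0.75), CNEP1R1 (0.98, then 0.83) and OBI1 (0.98, then 0.76), all higher in matured oocytes. For BCKDHA they were HSD17B8 (0.97, then 0.82) and MRPL37 (0.97, then 0.73). HSD17B8 averaged 73.3 CPM in GV, 8.84 CPM after IVM and 1.71 CPM after CNP_IVM, the same stepwise order as BCKDHA. For BCKDK they were EIPR1 (0.94, then 0.88) and PINK1 (0.93, then 0.88), for BCAT2 NUP62 (0.91, then 0.83) and SDC3 (0.90, then 0.82), and for PPM1K PSMD10 (0.82, then 0.81) and NLGN4X (0.80, then 0.70). BCKDHB had the weakest matches, RWDD4 (0.74, then 0.72) and CHD4 (0.71, then 0.72).

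Neighbouring genes were read from the RefSeq table of the cattle assembly ARS-UCD2.0, which held all 6 breakdown genes. No protein-coding gene overlapped any of them there, and 1 other gene model overlapped BCKDHB and 1 BCAT2. EXOSC5, next to BCKDHA, averaged 98.7 CPM in GV, 8.46 CPM after IVM and 0.684 CPM after CNP_IVM, again lower at each step. VKORC1 and KAT8, on either side of BCKDK, were at 151 and 132 CPM in GV, 25.3 and 13.3 CPM after IVM and 18.4 and 6.54 CPM after CNP_IVM. RTCA, next to DBT, was at 23.7, 38.7 and 31.1 CPM in the same order, so it did not share the size of the DBT difference. ABCG2, next to PPM1K, was at 61.4, 24.1 and 20.5 CPM, and TTK, next to BCKDHB, at 91.7, 146 and 136 CPM. TENT5A, also next to BCKDHB, was at 0.719, 1.39 and 0.602 CPM, and HSD17B14, next to BCAT2, at 0.642, 0.063 and 0.0526 CPM.

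DBT was then set beside the matching E2 subunits of the sister complexes. DLAT, of pyruvate dehydrogenase, averaged 8.76 CPM in GV oocytes, 18.7 CPM after IVM and 22.1 CPM after CNP_IVM, log2 differences from GV of 1.01 and 1.25. The IVM difference was 0.82 without GV replicate 9, whose DLAT level was 0.545 CPM. DLST, of 2-oxoglutarate dehydrogenase, averaged 10.7 CPM, 8.001 CPM and 1.95 CPM, log2 differences of -0.37 and -1.98, the latter -0.98 with quantile normalization. DLD, the E3 subunit shared by all of these complexes, averaged 34.4 CPM, 60.4 CPM and 41.0 CPM, log2 differences of 0.80 and 0.25. Within an oocyte, log2(CPM + 1) of DBT minus that of DLAT averaged 1.62 ± 1.15 in GV, 3.55 ± 0.54 in IVM and 3.04 ± 0.95 in CNP_IVM, and DBT minus DLST averaged 1.32 ± 0.98, 4.76 ± 0.90 and 6.10 ± 0.47 (SD). For DLST the GV and matured ranges of that difference were apart, up to 3.13 in GV and from 3.64 in matured oocytes, and for DLAT they overlapped. Without GV replicate 9, at 3.90, the GV values of DBT minus DLAT reached 1.95, below every IVM oocyte (from 2.61) and above 1 CNP_IVM oocyte, replicate 1 at 1.60.

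**Figure D3:**
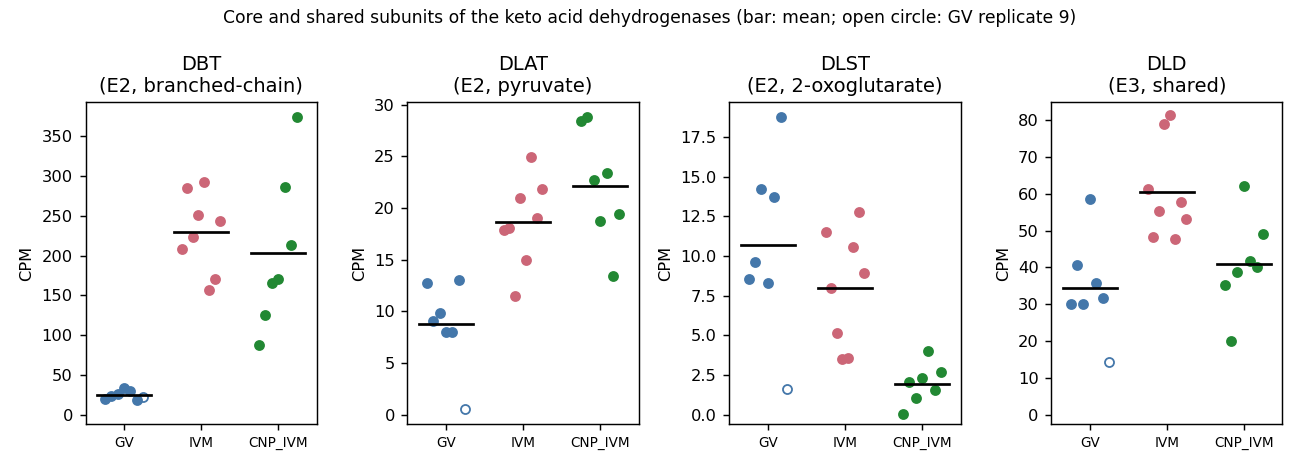
CPM (linear axes) of the E2 subunits of 3 keto acid dehydrogenases and of the shared E3 subunit in each oocyte of the GV, IVM and CNP_IVM groups. Points are oocytes, bars are group means and the open circle is GV replicate 9. DBT has the widest gap between GV and matured oocytes, and DLST is lowest in CNP_IVM, at 0.0528 to 3.99 CPM.

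The other genes of the pathway were taken from 6 lists of 55 genes, written with results on these data known. Of the 54 past the filter, 9 were higher, 13 lower and 32 under 2-fold after IVM, and the list had a median log2 difference of -0.06 against -0.28 for all genes. After CNP_IVM 4 were higher and 18 lower, 32 stayed under 2-fold, and the median was -0.23 against -0.61. Without GV replicate 9, 8 were higher after CNP_IVM. In CNP_IVM against IVM 0 were higher and 9 lower, 45 stayed under 2-fold, and the median was -0.49 against -0.28. Over all genes, 15.9% were higher and 33.0% lower after IVM, 15.3% and 42.0% after CNP_IVM, and 1.86% and 14.8% in CNP_IVM against IVM. The counts here and in each list below are to be set beside these shares, and nothing is read from them.

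**Figure D4:**
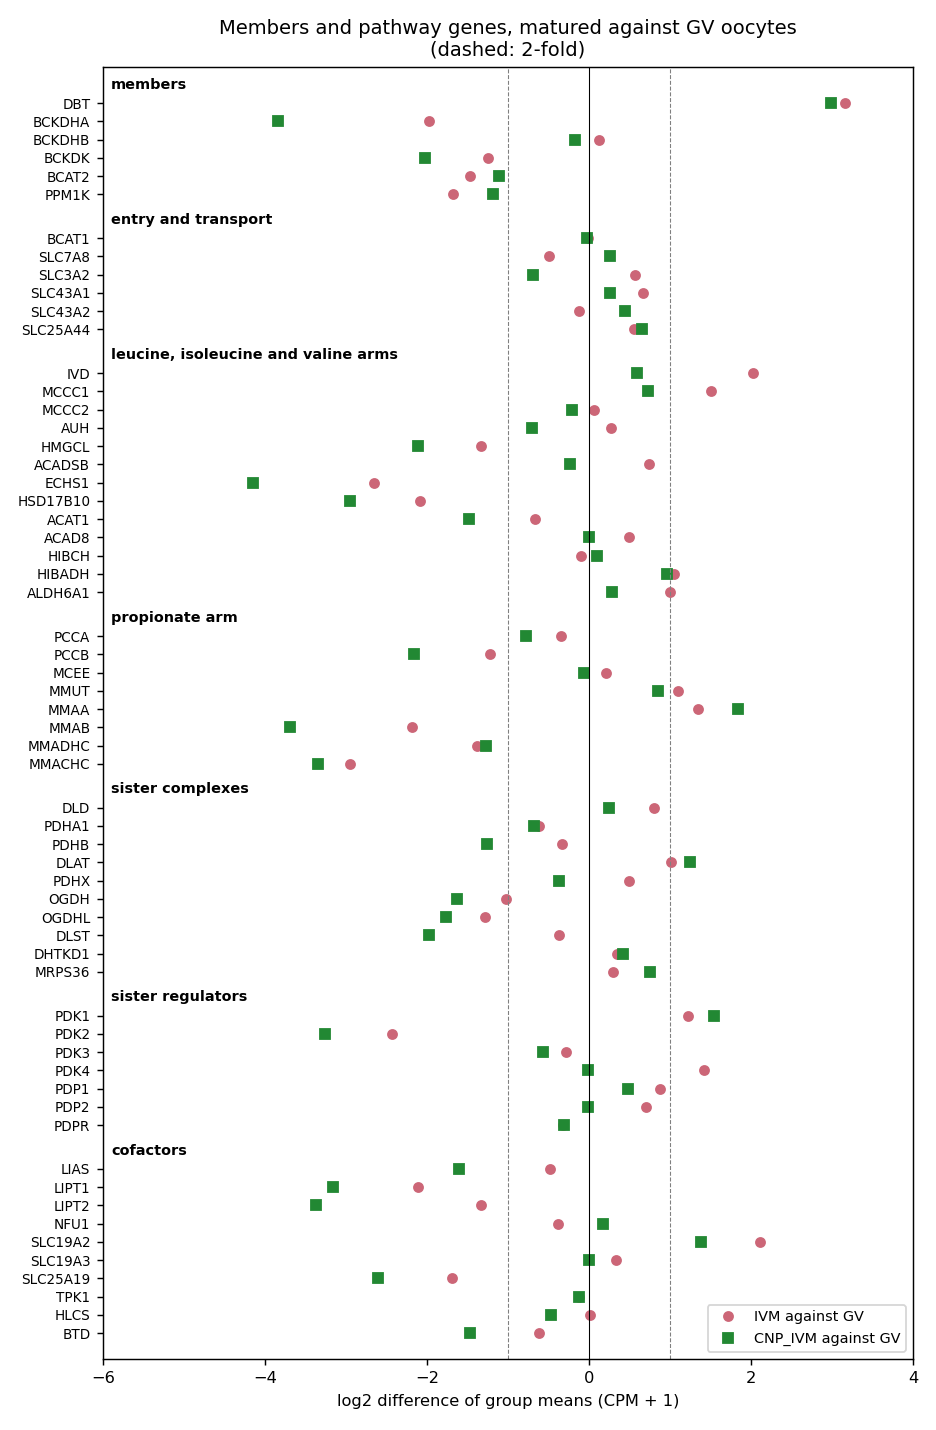
Log2 difference of group means (CPM + 1) of the 6 breakdown genes (headed members) and of 54 pathway genes, IVM against GV (circles) and CNP_IVM against GV (squares), which share the GV oocytes. Dashed lines mark 2-fold. DBT, at 3.15 and 2.98, stands furthest to the right of these genes, and ECHS1, at -2.66 and -4.15, is among those furthest to the left.

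Entry and transport held 7 genes, 6 past the filter, of which 0 were at least 2-fold from GV in either matured group; without GV replicate 9, 1 was higher after CNP_IVM. SLC3A2, the heavy chain of the plasma membrane exchanger for large neutral amino acids, was at 247 CPM in GV, 364 CPM after IVM and 152 CPM after CNP_IVM, a log2 difference of -1.25 between the matured groups that was -0.93 with TMM factors. SLC7A5, a light chain that pairs with it, stayed below 1 CPM in every oocyte. SLC25A44, the mitochondrial carrier of branched-chain amino acids, was at 28.4, 42.2 and 45.1 CPM, under 2-fold with all GV oocytes. Its highest GV oocyte, at 70.5 CPM, was GV replicate 9. Without that oocyte SLC25A44 was the 1 gene of this list that was higher after CNP_IVM.

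Downstream of the complex, 13 enzymes finish the leucine, isoleucine and valine arms. After IVM 3 were higher, 3 lower and 7 under 2-fold, and after CNP_IVM 0 higher, 4 lower and 9 under 2-fold. With GV replicate 9 left out, 1 was higher after CNP_IVM. In the leucine arm, IVD, the isovaleryl-CoA dehydrogenase next after the complex, was at 2.81 to 12.1 CPM in GV, 11.5 to 96.4 CPM after IVM and 5.52 to 24.01 CPM after CNP_IVM. Its log2 difference was 2.02 after IVM and 0.58 after CNP_IVM, and -1.43 between the matured groups. MCCC1, the biotin-bearing subunit of methylcrotonyl-CoA carboxylase, had a log2 difference of 1.50 after IVM and 0.72 after CNP_IVM. ECHS1, the enoyl-CoA hydratase of the isoleucine and valine arms and of fatty acid oxidation, averaged 137 CPM in GV, 20.8 CPM after IVM and 6.75 CPM after CNP_IVM. Its 3 groups did not overlap. Every IVM oocyte lay below every GV oocyte for 19.9% of all genes, and every CNP_IVM oocyte below every IVM oocyte for 2.60%. HSD17B10, the dehydrogenase that follows in the isoleucine arm, was at 108, 24.8 and 13.05 CPM, log2 differences of -2.08 and -2.96. ACAT1, the thiolase at the end of that arm, had a log2 difference of -1.49 after CNP_IVM, and -0.95 with TMM factors. HIBCH, of the valine arm, was at 32.4, 30.2 and 34.8 CPM.

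The propionate arm takes up propionyl-CoA from isoleucine and valine and turns it into succinyl-CoA with biotin and vitamin B12. Of its 8 genes, 2 were higher, 4 lower and 2 under 2-fold after IVM, and 1 higher, 4 lower and 3 under 2-fold after CNP_IVM. Leaving out GV replicate 9 left 1 higher after IVM. MMAA, a chaperone that loads the B12 cofactor onto methylmalonyl-CoA mutase, was at 364 to 455 CPM in GV, 746 to 1196 CPM after IVM and 1128 to 1801 CPM after CNP_IVM, log2 differences of 1.34 and 1.84. MMAB, which makes that cofactor, was at 162 to 443 CPM, 21.4 to 81.5 CPM and 12.1 to 21.7 CPM, log2 differences of -2.18 and -3.69. MMACHC, an earlier B12 processing protein, averaged 39.7, 4.28 and 2.99 CPM. MMADHC, its partner, averaged 30.3, 10.97 and 11.9 CPM, and its IVM difference of -1.39 was -0.99 with quantile normalization. PCCB, a subunit of propionyl-CoA carboxylase, averaged 287, 123 and 63.3 CPM. MMAA lay on the opposite side of GV from the other 3 B12 genes, with its matured oocytes all above the GV range. Over all genes 11.5% had every IVM oocyte above every GV oocyte, and 12.9% every CNP_IVM oocyte.

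Among 10 subunits of the sister complexes 1 was higher, 2 lower and 7 under 2-fold after IVM, and 1 higher, 4 lower and 5 under 2-fold after CNP_IVM. With GV replicate 9 left out, 1 was lower after IVM. OGDHL, an E1 subunit of 2-oxoglutarate dehydrogenase, averaged 21.6, 8.25 and 5.63 CPM, log2 differences of -1.29 and -1.77 that quantile normalization moved to -0.84 and -0.86. PDHB, the E1 beta subunit of pyruvate dehydrogenase, had a log2 difference of -1.26 after CNP_IVM, -0.80 with TMM factors and -0.25 with quantile normalization. Among 7 regulators of pyruvate dehydrogenase, 2 were higher, 1 lower and 4 under 2-fold after IVM, and 1 higher, 1 lower and 5 under 2-fold after CNP_IVM. Leaving out GV replicate 9 put 3 higher after IVM and 3 after CNP_IVM, with PDP1 among them. The highest GV level of PDP1, 32.3 CPM, was in that oocyte. The kinase genes of that complex, relatives of BCKDK, did not share a direction. PDK1 averaged 20.01, 47.9 and 60.3 CPM, PDK2 19.7, 2.83 and 1.17 CPM, and PDK3 184, 150.1 and 124 CPM. PDK4 had a log2 difference of 1.42 after IVM, with 26.4 CPM in GV replicate 9 and at most 0.370 CPM in the other GV oocytes. That difference was 3.53 without GV replicate 9 and 3.14 for group medians.

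Among 10 cofactor genes 1 was higher, 3 lower and 6 under 2-fold after IVM, and 1 higher, 5 lower and 4 under 2-fold after CNP_IVM. The lipoyl arm on DBT is made by LIAS, LIPT1 and LIPT2. LIPT2, an octanoyl transferase, averaged 147 CPM in GV, 57.9 CPM after IVM and 13.3 CPM after CNP_IVM, and its 3 groups did not overlap. Of all genes, 19.9% had IVM wholly below GV and 2.60% had CNP_IVM wholly below IVM. LIPT1, which passes the lipoyl group to E2 subunits, averaged 61.5, 13.4 and 6.02 CPM, log2 differences of -2.12 and -3.16. LIAS, lipoic acid synthase, averaged 87.6, 62.2 and 28.1 CPM, log2 differences of -0.49 and -1.61. SLC19A2, a thiamine transporter of the plasma membrane, averaged 20.6, 91.7 and 55.0 CPM, log2 differences of 2.10 and 1.38, with every matured oocyte above every GV oocyte. Such a gap was found for 11.5% of all genes after IVM and 12.9% after CNP_IVM. LIPT1 and LIAS were 2-fold lower in CNP_IVM than in IVM (-1.04 and -1.12) as reported and under 2-fold with TMM factors (-0.82 and -0.89).

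Depth and purity were looked at over all libraries. Totals ran from 20159662 to 39340040 reads, and 9381 to 11798 genes were at 1 CPM or more. All 10 oocyte markers were past the filter, and their summed level was 19874 to 23733 CPM in GV, 22680 to 41095 CPM in IVM and 30926 to 47769 CPM in CNP_IVM. BTG4 carried that order, with means of 9807, 19952 and 32075 CPM, and the other 9 markers summed to 10146 to 16941, 6350 to 12265 and 4503 to 6806 CPM. By gene, 3 were higher and 4 lower after IVM (median log2 difference -0.59), and 1 higher and 6 lower after CNP_IVM (median -1.81). Of 19 cumulus and granulosa markers 14 had a row and 10 passed the filter; their summed level was 623 to 1070 CPM in GV, 382 to 651 CPM in IVM and 251 to 340 CPM in CNP_IVM. STAR made up most of the GV and IVM sums, with means of 657, 316 and 93.9 CPM. The other 13 markers lay in the opposite order, with mean sums of 121, 187 and 202 CPM and ranges of 58.8 to 330, 148 to 241 and 151 to 242 CPM. The 330 CPM was GV replicate 9, and the next GV oocyte had 163 CPM. Among them HAS2 averaged 16.3, 77.1 and 118 CPM, and PTGS2 13.4, 38.0 and 37.6 CPM. Of the 10 past the filter, only these 2 were at least 2-fold higher than in GV, after IVM as after CNP_IVM. With STAR counted, 3 of the 10 were lower after IVM and 4 after CNP_IVM. The median log2 differences of the 10 were -0.28 and -0.70. Of 8 blood and immune markers 5 had a row and 2 passed, and their summed level was 173 to 362 CPM, 8.42 to 46.8 CPM and 3.53 to 25.7 CPM. VWF made up most of that sum, with means of 225, 21.1 and 11.2 CPM. The other 4 blood and immune markers had mean sums of 30.9, 4.18 and 1.58 CPM. Among these CD3E averaged 29.4, 3.55 and 1.27 CPM. PECAM1, HBA and the macrophage marker CD68 averaged below 1 CPM in every group. PECAM1 was higher on average in matured oocytes, at 0.139, 0.523 and 0.192 CPM. HBA was at 0.652, 0.0307 and 0.115 CPM, and CD68 at 0.733 and 0.0813 CPM and at 0 in all CNP_IVM oocytes. FSHR, which defines granulosa cells, reached at most 1.13 CPM. INHA and KRT8 of the same list were at 59.7 and 74.4 CPM in their highest GV oocyte. Their GV medians were 2.52 and 1.90 CPM. The blood and immune sum, mostly VWF, and the STAR mean were lower in matured oocytes. So were the means of BCKDHA, BCKDK, BCAT2 and PPM1K. The other 13 cumulus and granulosa markers summed to a higher mean there, a sum that includes HAS2 and PTGS2. The part of these markers in the differences of the breakdown genes was not tested.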

How the data were processed

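The authors deposited 1 table named for TPM, with 1 column per oocyte for 22 of 29 labelled oocytes. The deposited values are CPM: every value of a library is a whole multiple of 1 step, and with a tolerance of 0.01 read 100% of values gave whole reads. Per the submitters' processing notes, the tools were HISAT2 2.2.1, Trim Galore 0.6.7, edgeR, featureCounts 2.0.1 and FastQC, in roles not given, and the mouse build GRCm39. The gene names are cattle symbols (13356 of 13502 are current in RefSeq), and the cattle build is not given in the sources used here. Columns were matched through the sample descriptions, and groups were taken from titles. No column was left over, and 7 labelled samples were not analysed here.

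Pairs of libraries within a group were compared by chi-square over genes with 20 or more reads; the lowest value divided by its degrees of freedom was 37.96, far above sampling noise. Since each group counted as 1 sample, no count model was run on the recovered reads. Differences are log2 of group means plus 1 CPM, among genes at 1 CPM or above in 6 or more libraries. Alternatives were other pseudocounts, filters, scalings (TMM by edgeR 4.0.16 in R 4.3.3), medians and left-out oocytes. Steps were tested on simulated reads.

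The genes and lists were chosen with earlier results of these data known. Text genes are the 6 breakdown genes, DLAT, DLST, DLD and BCAT1, and per list and comparison up to 4 genes at least 2-fold apart whose higher group mean reached 10 CPM. For DBT the 3 most alike genes are given, and for each other gene 2. The genes SLC25A44, SLC7A5, HIBCH, PDK3, PDP1, FSHR, CD68, BTG4, STAR, HAS2, PTGS2, VWF, CD3E, INHA and KRT8 were added after their values were seen. PECAM1 and HBA were likewise added after their values were seen. So were the marker sums without BTG4, STAR or VWF, the neighbouring genes and the DBT and BCAT2 pair. Python 3.11.15, pandas 2.3.3 and scipy 1.17.1 were used.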

Additional observations from a re-analysis of the deposited data

Results flagged for a closer look

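In groups of 7 or 8 oocytes, a highest or lowest oocyte was singled out where its gap to the next was large for the range of the group (Dixon's 95% limit). For normally distributed values chance alone gives this in about 1 in 20 groups. CPM was not transformed for this, and all genes share the same oocytes, so that rate need not hold here. In all, 30 genes in 3 groups each gave 90 looks and 17 cases, 3 of them among 18 looks at the breakdown genes. Of the 17, 9 were GV replicate 9, whose treatment label goes against its title, and 4 were IVM replicate 8.

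Among breakdown genes, BCKDK was at 3.30 CPM in GV replicate 9 (next 30.7 CPM), BCKDHB at 26.4 CPM in CNP_IVM replicate 2 (next 17.4 CPM), and BCAT2 at 8.46 CPM in IVM replicate 8 (next 3.61 CPM).

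GV replicate 9 was also lowest for DLAT (0.545 CPM, next 8.001 CPM) and PDHB (0 CPM, next 11.7 CPM). It was highest for BCAT1 (67.6 CPM, next 34.0 CPM), MMAB (443 CPM, next 227 CPM), OGDHL (45.1 CPM, next 22.4 CPM), PDK1 (43.2 CPM, next 21.3 CPM), PDK2 (48.4 CPM, next 20.1 CPM) and PDK4 (26.4 CPM, next 0.370 CPM). Genes reaching 1 CPM numbered 9381 in it and 11311 to 11798 in the rest of its group. Its DBT and BCKDHB levels lay inside the range of the other GV oocytes.

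IVM replicate 8 was highest for IVD (96.4 CPM, next 40.1 CPM), PDK4 (41.9 CPM, next 19.2 CPM) and SLC19A2 (198 CPM, next 105 CPM), and IVM replicate 1 for MMADHC (18.5 CPM, next 12.3 CPM). CNP_IVM replicate 5 was highest for LIAS (58.1 CPM, next 31.7 CPM) and OGDHL (12.6 CPM, next 6.17 CPM).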

How the results depend on the processing

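Leaving out each oocyte in turn moved all 18 log2 differences of the breakdown genes by less than the SD between oocytes (264 of 264 values). Leaving 1 oocyte out of such small groups can hardly shift a mean by that SD, so nothing is read from this count. For CNP_IVM against GV, BCAT2 came under 2-fold without GV replicate 9 (-0.89) or without CNP_IVM replicate 7 (-0.99). PPM1K came under 2-fold there without GV replicate 6 (-0.95). Of 90 values under other settings, 77 moved by less than the SD between oocytes. With quantile normalization DBT was 3.51, BCKDHB 0.59 and BCAT2 -0.84 for IVM against GV, and BCKDHA -3.02, BCKDHB 0.63, BCAT2 -0.052 and PPM1K -0.14 for CNP_IVM against GV. With TMM factors DBT was 3.53, BCKDHA -3.41 and BCKDHB 0.36 for CNP_IVM against GV. BCKDHA was -4.67 with 0.1 CPM added and -2.44 with 5 CPM added for CNP_IVM against GV, and -0.91 with 5 CPM for CNP_IVM against IVM. With 5 CPM added BCAT2 was -0.93 and -0.74, and PPM1K -0.83 and -0.63, from GV in IVM and CNP_IVM. Without GV replicate 9, 3 instead of 1 of the breakdown genes had all IVM oocytes below GV, and 2 instead of 1 had all CNP_IVM oocytes below; this was added after seeing the data.

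Over all genes, quantile normalization gave 3151 higher for IVM against GV, 3540 higher and 3196 lower for CNP_IVM against GV, and 484 higher and 721 lower between the matured groups. TMM factors gave 3012 higher for CNP_IVM against GV and 457 higher and 992 lower between the matured groups, and 0.1 CPM added gave 395 and 2793 there. A filter of 10 CPM left 2390 and 3009 lower in IVM and CNP_IVM against GV. Of pathway genes, quantile normalization put 16 higher for IVM, 18 higher and 11 lower for CNP_IVM and 1 higher between the matured groups. TMM factors put 11, and the lack of GV replicate 9 put 8, higher for CNP_IVM. With 0.1 CPM added 1 was higher and 17 lower between the matured groups. In these cases, other than those made by a stricter filter, the cause was not tested. Of 41 differences of named pathway genes none reversed in 238 values under these settings, and 23 values came under 2-fold. The 41 were chosen as at least 2-fold apart, and another added constant cannot reverse a sign. Nothing is therefore read from the lack of reversals.

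No paired analysis was possible because the results come from no test, and shared replicate numbers in the labels name no shared animal. Depth limits BCKDHA in CNP_IVM (0 to 67 reads per oocyte) and PPM1K (0 to 390 reads).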
